A study of Sus scrofa with 23 samples.

Results

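CD74, SLA-DRA, B2M and TAP1 are genes of antigen presentation, the display of peptides on the cell surface by major histocompatibility complex (MHC) molecules. They were taken as all probe sets of the array whose single platform gene symbol is 1 of these 4 names. This gave 14 probe sets out of 23999 without controls, and 4 genes out of 6765 named ones: 1 probe set for CD74, 1 for SLA-DRA, 9 for B2M and 3 for TAP1. All 14 passed the filter on low signal and were tested. Levels were read in articular cartilage of pigs from a cross of Duroc and Pietrain, on the Affymetrix Porcine Genome Array. The animals were sib-pairs that were affected or not affected by osteochondrosis, a disease of young animals in which ossification beneath the joint surface is locally disturbed. The 21 samples comprised 4 femur affected, 4 femur non-affected, 7 humerus affected and 6 humerus non-affected samples, where femur stands for the medial femoral condyle and humerus for the medial part of the humeral condyle. No age, treatment or sib relation of a sample is given in the labels used here.

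MHC class I molecules are found on nearly all nucleated cells and show peptides from the cell's own proteins to CD8 T cells. The peptides are cut by the proteasome, carried into the endoplasmic reticulum by a transporter made of TAP1 and TAP2, and bound by a class I heavy chain together with B2M, the invariant light chain. MHC class II molecules show peptides of ingested proteins to CD4 T cells and are found mainly on professional antigen-presenting cells such as macrophages, dendritic cells and B cells. SLA-DRA is the alpha chain of the pig class II molecule DR, and CD74, the invariant chain, occupies the class II groove until the molecule reaches the compartment where peptides are loaded. In other mammals interferon gamma raises both sets of genes, the class II genes through the coactivator CIITA. Mature articular cartilage is normally free of blood vessels and consists of chondrocytes in a dense matrix. Whether the tissue pieces taken here held vessels was not examined.

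All values are the deposited signals on the log2 scale, which has a floor at 4. The 6 measured chondrocyte markers averaged 11.1 to 12.3 per sample and were bright in all 4 groups, as the labelled tissue has them. Of 11 measured T cell and NK cell markers, 4 passed the filter on low signal, and the mean of all 11 was 5.04 to 5.50 in every sample. The sample humerus non-affected 5 stood apart from the other humeral samples. On the first principal component, which held 43.5% of the variance, it lay at 29.0, among the femoral samples (26.9 to 58.4) and away from the other humeral samples (-53.2 to -0.802). Hybridisation controls, RNAs added to every array in fixed amounts, also differed by site: 8 of 9 were higher on every femoral than on every humeral array, by 0.456 to 1.62 on the log2 scale, and the other overlapped between the sites. Within a site, affected minus non-affected differences of these controls were between -0.062 and 0.066. Array handling and site therefore cannot be told apart in the femur against humerus comparisons below.

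**Figure D1:**
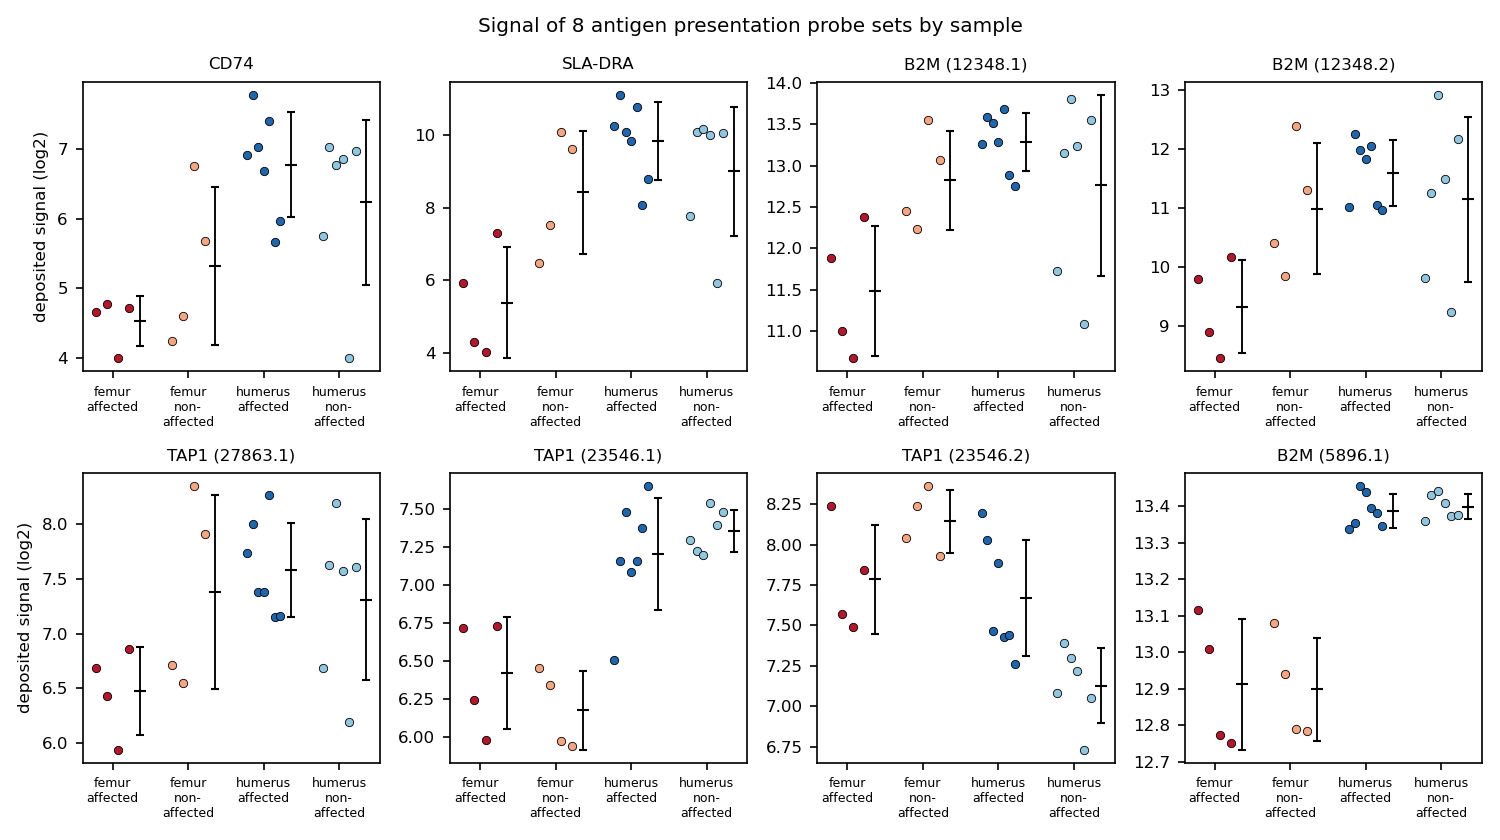
Deposited log2 signal of 8 of the 14 probe sets (vertical axes, each with its own scale) in the 4 groups; points are samples and the bar to the right of each group is the mean ± SD (n = 4 femur affected, 4 femur non-affected, 7 humerus affected, 6 humerus non-affected). CD74, SLA-DRA, both 12348 probe sets of B2M and TAP1 27863.1 have their lowest mean in femur affected cartilage. B2M 5896.1 separates the sites and not the disease groups. TAP1 23546.1 has lower means in femur than in humerus at either status, but its sites overlap in affected cartilage.

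SLA-DRA had the second widest spread within groups among the 14 probe sets. Its single probe set (Ssc.222.1.S1_at) had signals of 5.91, 4.31, 4.0 and 7.30 in the 4 femur affected samples, against 6.49, 7.52, 10.1 and 9.61 in the 4 femur non-affected samples. Humerus affected samples ran from 8.09 over a median of 10.1 to 11.1, and humerus non-affected samples from 5.92 over a median of 10.03 to 10.19. The femoral groups overlapped only through femur affected 4, at 7.30, which lay above femur non-affected 1/2, at 6.49. The lowest femoral value, in femur affected 3, was at the floor of the scale. The group means were 5.38 ± 1.53 in femur affected and 8.42 ± 1.71 in femur non-affected samples (SD, n = 4 each), and 9.85 ± 1.08 in humerus affected (SD, n = 7) and 9.01 ± 1.78 in humerus non-affected samples (SD, n = 6). The SD within groups was 1.505, larger than for all but 0.47% of the tested probe sets, whose median was 0.274.

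Affected minus non-affected, SLA-DRA differed by -3.04 ± 0.974 (SE) in the femur, which is 8.25-fold on a linear scale, with a 95% interval of -5.07 to -1.01. This did not pass the test over all probe sets (limma, adjusted p = 0.109, unadjusted p = 0.00525). In the humerus the difference was 0.84 ± 0.766 (SE), with an interval of -0.75 to 2.44 (limma, adjusted p = 0.858). Without humerus non-affected 5 the humeral difference was 0.23. The difference between the femoral and the humeral effect was -3.89 ± 1.24 (SE; limma, adjusted p = 0.141). Over both sites together the difference was -0.64 ± 0.718 (SE), with opposite signs at the sites, and did not pass either (limma, adjusted p = 0.855). Without single samples that value ran from -1.10 (without humerus non-affected 5) to -0.31 (without femur non-affected 4).

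CD74 gave lower signals in the same samples. Its probe set (Ssc.6222.1.S1_a_at) read 4.66, 4.77, 4.0 and 4.71 in femur affected cartilage, against 4.24, 4.60, 6.76 and 5.67 in femur non-affected cartilage. Humerus affected samples ran from 5.66 over a median of 6.91 to 7.78, and humerus non-affected samples from 4.0 over a median of 6.82 to 7.03. The femoral groups overlapped, with 2 non-affected samples inside the affected range. Across the groups 2 readings (femur affected 3 and humerus non-affected 5) were at the floor. Affected minus non-affected, CD74 differed by -0.78 ± 0.606 (SE) in the femur, with a 95% interval of -2.05 to 0.48, and by 0.55 ± 0.476 (SE) in the humerus, with an interval of -0.45 to 1.54. Neither passed the test (limma, adjusted p = 0.477 and 0.851). Leaving out femur non-affected 4 gave a femoral difference of -0.30, and leaving out femur non-affected 1/2 gave -1.14. Without humerus non-affected 5 the humeral difference was 0.099. Readings at the floor give only an upper bound for the level, so differences that include them may be understated.

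The 9 probe sets assigned to B2M did not behave as 1 gene. In the platform annotation all 9 carry the same RefSeq transcript accession, and the pig gene table lists 2 neighbouring genes named B2M. Only Ssc.12348.1.S1_at and Ssc.12348.2.S1_at followed SLA-DRA and CD74, as judged by the correlations given further on. Ssc.12348.1.S1_at read 11.9, 11.0, 10.7 and 12.4 in femur affected cartilage, against 12.5, 12.2, 13.6 and 13.1 in femur non-affected cartilage. It ran from 12.8 over a median of 13.3 to 13.7 in humerus affected and from 11.1 over a median of 13.2 to 13.8 in humerus non-affected cartilage. The femoral groups touched at 1 place, where femur affected 4 lay above femur non-affected 3. Ssc.12348.2.S1_at averaged 9.33 ± 0.787 in femur affected and 11.0 ± 1.11 in femur non-affected samples (SD, n = 4 each), and 11.6 ± 0.561 in humerus affected (SD, n = 7) and 11.1 ± 1.40 in humerus non-affected samples (SD, n = 6).

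Affected minus non-affected in the femur, these B2M probe sets differed by -1.34 ± 0.49 (SE; interval -2.37 to -0.31) for Ssc.12348.1.S1_at and by -1.66 ± 0.653 (SE; interval -3.02 to -0.30) for Ssc.12348.2.S1_at. Neither passed the test (limma, adjusted p = 0.151 and 0.171). In the humerus the differences were 0.52 and 0.44 (limma, adjusted p = 0.820 and 0.890), and without humerus non-affected 5 they were 0.18 and 0.063. The other 7 B2M probe sets differed by -0.12 to 0.44 in the femur and by -0.24 to 0.66 in the humerus, with adjusted p-values of at least 0.581 (limma). Single samples moved these values: in the femur Ssc.8925.1.S1_at ran from -1.07 without femur affected 1 to 1.24 without femur affected 2, and Ssc.12809.4.S1_a_at from -0.14 without femur non-affected 1/2 to 0.67 without femur non-affected 4.

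Among these 7, Ssc.5896.1.S1_at was the brightest of all B2M probe sets and the steadiest of the 14. It averaged 12.91 ± 0.179 in femur affected and 12.90 ± 0.141 in femur non-affected samples (SD, n = 4 each), and 13.39 ± 0.0455 in humerus affected (SD, n = 7) and 13.40 ± 0.0338 in humerus non-affected samples (SD, n = 6). Of all tested probe sets, 99.3% spread more within groups. The 5 genes whose deviations from group means followed it most closely all encode ribosomal proteins, led by RPL23 (r = 0.920) and RPS26 (r = 0.899). Ssc.8925.1.S1_at was the opposite case, with readings from 6.27 in femur affected 2 to 13.5 in humerus non-affected 2 and the widest spread within groups of the 14 probe sets (SD 2.02). The genes most like it were HBM, a globin chain (r = 0.952), ALAS2, the red cell enzyme of heme synthesis (r = 0.945), and AHSP, which binds alpha globin (r = 0.850). Whether Ssc.5896.1.S1_at and Ssc.8925.1.S1_at read B2M was not tested, since no probe sequences were used here.

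TAP1, the transporter subunit, also had probe sets that disagreed. Ssc.27863.1.S1_at read 6.68, 6.43, 5.94 and 6.86 in femur affected cartilage, against 6.72, 6.55, 8.35 and 7.91 in femur non-affected cartilage. Humerus affected samples ran from 7.15 over a median of 7.38 to 8.27, and humerus non-affected samples from 6.19 over a median of 7.59 to 8.19. In the femur, 2 of the 4 non-affected samples lay among the affected ones and the other 2 above them. Affected minus non-affected, it differed by -0.90 ± 0.409 (SE; interval -1.75 to -0.05) in the femur and by 0.27 ± 0.322 (SE) in the humerus (limma, adjusted p = 0.224 and 0.891). The femoral difference was -0.58 without femur non-affected 4, and the humeral one was 0.047 without humerus non-affected 5.

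The brightest TAP1 probe set, Ssc.23546.2.A1_at, averaged 7.79 ± 0.338 in femur affected and 8.14 ± 0.194 in femur non-affected samples (SD, n = 4 each), and 7.67 ± 0.359 in humerus affected (SD, n = 7) and 7.13 ± 0.233 in humerus non-affected samples (SD, n = 6). Affected minus non-affected, it differed by -0.36 ± 0.205 (SE; limma, adjusted p = 0.326) in the femur and by 0.54 ± 0.161 (SE) in the humerus. The humeral difference did not pass over all probe sets (limma, adjusted p = 0.641, unadjusted p = 0.00296), although it had the smallest p of the 14 there. The difference between both effects was -0.90 ± 0.261 (SE; limma, adjusted p = 0.117). Ssc.23546.1.S1_at, which shares its cluster number with the brightest one, differed by 0.24 in the femur and by -0.15 in the humerus (limma, adjusted p = 0.523 and 0.880), opposite in sign at both sites. Without single samples it ran from 0.14 (without femur affected 4) to 0.39 (without femur affected 3) in the femur and was -0.035 in the humerus without humerus affected 1.

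Over all 14 probe sets, none was called in any comparison of disease status. The table as a whole had calls for 0% of tested probe sets over both sites, 0% within the humerus, 1.14% within the femur and 0.268% for the difference between the sites (limma, adjusted p under 0.05). At an unadjusted p under 0.05, limma gave 1223 probe sets (7.28%) over both sites and 1100 (6.55%) within the humerus. It gave 3422 (20.4%) within the femur and 3177 (18.9%) for the difference between the sites. The median difference of the 14 was -0.05 in the femur and 0.24 in the humerus, beside 0.0092 and -0.014 over all tested probe sets, and 7 of 14 were negative in the femur and 5 of 14 in the humerus. No probe set of the 14 separated affected from non-affected samples without overlap at either site, as 8.08% of all tested probe sets did in the femur and 0.22% in the humerus.

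**Figure D2:**
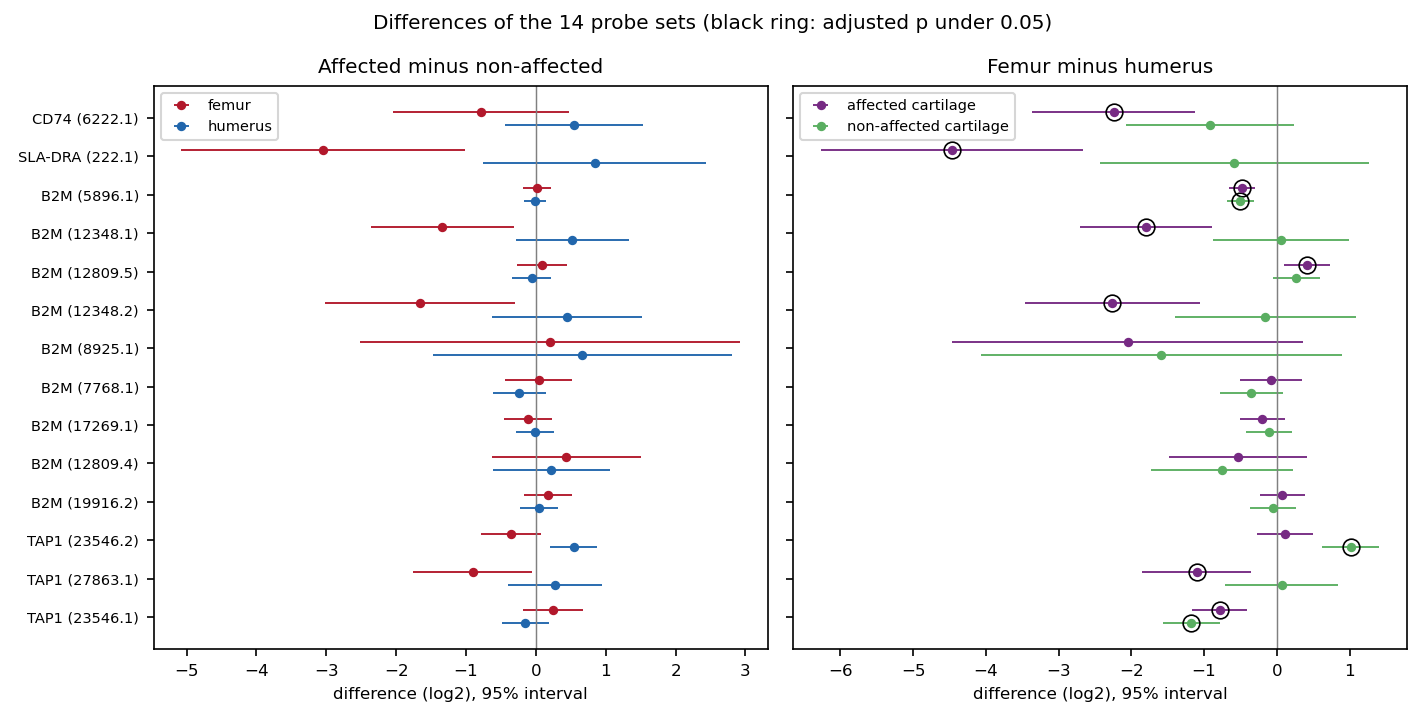
Differences of the 14 probe sets on the log2 scale with 95% intervals from the limma fit: affected minus non-affected in the femur and the humerus (left), and femur minus humerus in affected and non-affected cartilage (right); a black ring marks an adjusted p under 0.05. No ring appears on the left, and the 8 rings in affected cartilage and 3 in non-affected cartilage on the right are the calls given in the text, with SLA-DRA at -4.47 farthest from 0.

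The sites were also compared within each disease status. In affected cartilage, 8 of the 14 probe sets were called, 1 higher and 7 lower in femur than in humerus, where 38.5% of all tested probe sets were called. SLA-DRA fell by 4.47 ± 0.863 on the log2 scale (SE; interval -6.27 to -2.67; limma, adjusted p = 0.000653), which is 22.2-fold. All 4 femur affected samples lay below all 7 humerus affected samples, with 7.30 as the highest femoral and 8.09 as the lowest humeral value. CD74 fell by 2.24 ± 0.537 (SE; limma, adjusted p = 0.00307), B2M Ssc.12348.1.S1_at by 1.80 ± 0.437 (SE; limma, adjusted p = 0.00342) and B2M Ssc.12348.2.S1_at by 2.26 ± 0.579 (SE; limma, adjusted p = 0.00489), each also without overlap. Of the TAP1 probe sets, Ssc.27863.1.S1_at fell by 1.103 ± 0.363 (SE; limma, adjusted p = 0.0216) and Ssc.23546.1.S1_at by 0.78 ± 0.183 (SE; limma, adjusted p = 0.00256). Without femur affected 3, the value for Ssc.27863.1.S1_at was -0.92 and no longer passed (limma, adjusted p = 0.0797). The remaining calls were small: B2M Ssc.5896.1.S1_at fell by 0.47 and B2M Ssc.12809.5.A1_at was higher by 0.41 (limma, adjusted p = 0.000426 and 0.0353). B2M Ssc.8925.1.S1_at was not called, but without femur affected 1 it differed by -3.32 and passed (limma, adjusted p = 0.0261). In all, 7 of the 14 did not overlap between the sites in affected cartilage, beside 20.2% of all tested probe sets.

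In non-affected cartilage, 3 of the 14 were called, 1 higher and 2 lower in femur, where 36.6% of all tested probe sets were called. None of them was SLA-DRA, CD74 or a 12348 probe set of B2M. SLA-DRA differed by -0.58 ± 0.889 (SE; interval -2.43 to 1.27; limma, adjusted p = 0.636) and CD74 by -0.92 ± 0.553 (SE; interval -2.07 to 0.24; limma, adjusted p = 0.2003). Without humerus non-affected 5, the low humeral sample, CD74 differed by -1.36 and passed (limma, adjusted p = 0.0247), and SLA-DRA differed by -1.20 (limma, adjusted p = 0.241). Without femur non-affected 1/2 CD74 differed by -0.56 and SLA-DRA by 0.065, and leaving out femur non-affected 4 gave -1.40 for CD74. The calls were TAP1 Ssc.23546.1.S1_at, which fell by 1.18 ± 0.188 (SE; limma, adjusted p = 0.000214), TAP1 Ssc.23546.2.A1_at, which rose by 1.02 ± 0.187 (SE; limma, adjusted p = 0.000596), and B2M Ssc.5896.1.S1_at, which fell by 0.50 ± 0.0894 (SE; limma, adjusted p = 0.000484). So 2 probe sets assigned to TAP1 moved in opposite directions between the same samples, without overlap between the groups in either. Among the 14, 1 lay wholly above and 2 wholly below in femur, about the share without overlap over all tested probe sets (21.1%). For SLA-DRA, the step between the sites in affected and in non-affected cartilage differs by the same -3.89 as given above for the disease effect, and that difference did not pass.

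**Figure D3:**
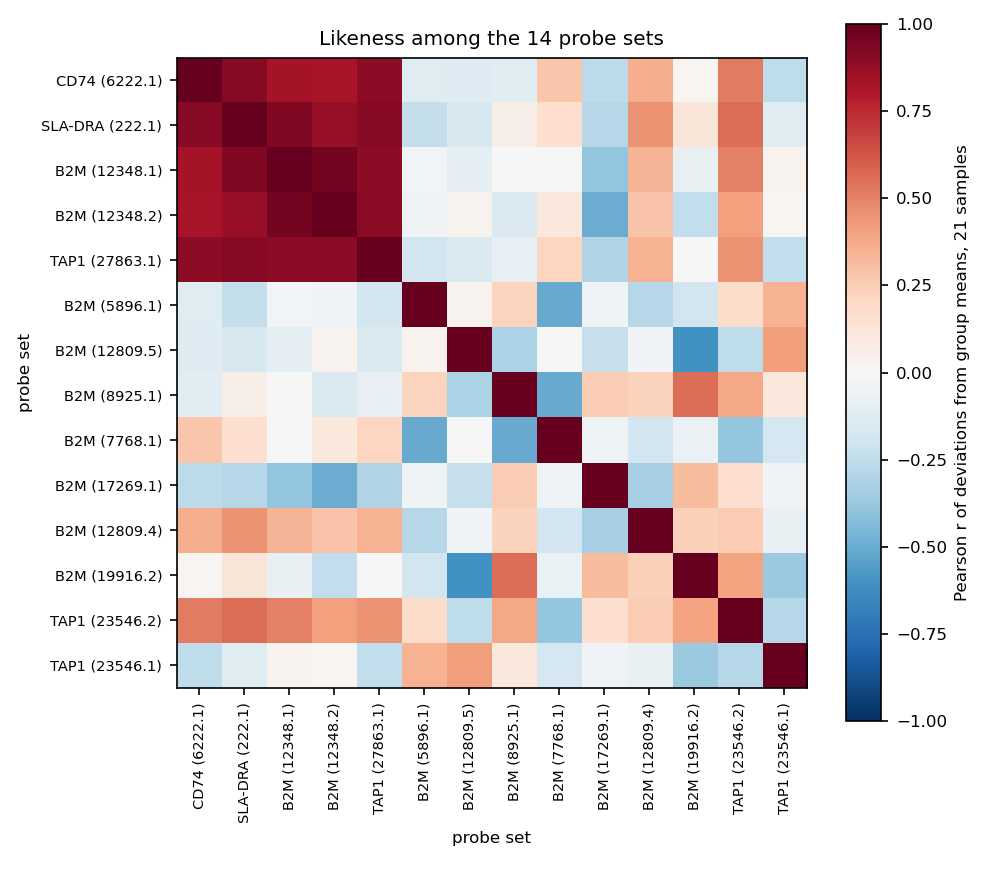
Pearson r between each pair of the 14 probe sets, over the deviations of 21 samples from their group means (colour scale from -1 to 1). CD74, SLA-DRA, B2M 12348.1 and 12348.2 and TAP1 27863.1 form the dark block at the upper left, with r from 0.825 to 0.957, and the other 9 probe sets do not join it.

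Within groups, 5 of the probe sets moved together from sample to sample. Over the deviations of the 21 samples from their group means, SLA-DRA correlated with CD74 at r = 0.909, with B2M Ssc.12348.1.S1_at at r = 0.925 and with TAP1 Ssc.27863.1.S1_at at r = 0.908. Taken by site, SLA-DRA and CD74 correlated at 0.785 over the 8 femoral and at 0.986 over the 13 humeral samples, and at 0.855 over all without the 2 samples farthest from the median. These points share arrays and tissue pieces, and the correlations are given as a description. The TAP1 probe sets Ssc.23546.2.A1_at and Ssc.23546.1.S1_at, in contrast, correlated at -0.285 over the deviations and at -0.675 over the values themselves. With SLA-DRA, Ssc.23546.2.A1_at correlated at 0.557 over the deviations and Ssc.23546.1.S1_at at -0.12.

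The genes most like SLA-DRA, among 5904 genes with a tested probe set and over the same deviations, were SLA-DQA1 (r = 0.989), the alpha chain of class II DQ, followed by LOC106504372 (r = 0.988), SLA-DRB1 (r = 0.988), the DR beta chain, SLA-DQB1 (r = 0.981), the DQ beta chain, and C1R (r = 0.964), a protease of the complement pathway. In the pig gene table SLA-DRB1 lies within 2 places of SLA-DRA on the chromosome, and PSMB8 and PSMB9, subunits of the immunoproteasome, lie on either side of TAP1. CD74 was most like SLA-DMB (r = 0.930), a chain of the class II peptide loader, VSIG4 (r = 0.917), a complement receptor of macrophages, and FCGR3A (r = 0.915), an Fc receptor. B2M Ssc.12348.1.S1_at was most like CTSS (r = 0.953), the protease that trims CD74, and SLA-DRB1 (r = 0.933). TAP1 Ssc.27863.1.S1_at was most like IFI44L (r = 0.938) and ISG12(A) (r = 0.935), both induced by interferon, and PSMB8 (r = 0.923). Its 2 fellow probe sets had no gene of antigen presentation among their closest 5.

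The other genes of class II presentation were measured by 11 genes of 22 listed, and 10 were tested. In the femur all 10 were lower in affected than in non-affected cartilage, with a median difference of -1.44, but none passed the test (limma). SLA-DRB1 differed by -3.02 (adjusted p = 0.109), SLA-DQA1 by -2.68 (adjusted p = 0.108) and CIITA, the coactivator, by -0.68 (adjusted p = 0.0701). In the humerus 9 of the 10 were positive, with a median of 0.67, and none passed. The difference between the sites was negative for all 10 and passed for none, with CIITA (-0.98, limma adjusted p = 0.0766) having the smallest p. Femur against humerus in affected cartilage, all 10 were negative, with a median of -2.47. Of these, 8 were called, beside 38.5% of all tested probe sets. The smallest p-values belonged to CTSS, which fell by 4.51 (limma, adjusted p = 0.000165), SLA-DQA1, which fell by 3.84 (limma, adjusted p = 0.000721), and SLA-DRB1, which fell by 4.18 (limma, adjusted p = 0.000991). In non-affected cartilage the same comparison gave 1 call, CIITA, which rose by 0.47 (limma, adjusted p = 0.0361), and the median was -0.27. Of all tested probe sets 36.6% were called there.

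For class I presentation, 13 other genes of 23 listed were measured and tested. In the femur, affected minus non-affected, 12 of the 13 were negative with a median of -0.69, and none passed. The smallest p-values belonged to TAPBP, which holds the class I heavy chain at the transporter (-1.28, limma adjusted p = 0.0633), PSME1, a proteasome activator (-0.87, limma adjusted p = 0.109), and PSMB10, an immunoproteasome subunit (-0.73, limma adjusted p = 0.147). In the humerus 9 of the 13 were positive with a median of 0.13, and none passed. Femur against humerus in affected cartilage, 11 of the 13 were negative. Of the 13, 4 were called lower and 1 higher, which is about the share called over all tested probe sets (38.5%). PSMB8 fell by 2.30 (limma, adjusted p = 0.0034), SLA-2, a class I heavy chain, by 1.13 (limma, adjusted p = 0.00444) and PSME1 by 0.83 (limma, adjusted p = 0.0133). These 5 calls became 3 when humerus affected 2, 3 or 4 was left out. In non-affected cartilage 36.6% of all tested probe sets were called. Of the 13 genes 1 was called, SLA-6, a class I gene, which rose by 0.60 (limma, adjusted p = 0.0132). That count was 2 to 4 under several alternatives.

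Among genes of interferon signalling and response, 12 of the interferon gamma pathway and 13 of the type I interferon response were tested. In the femur, affected minus non-affected, the interferon gamma pathway had no call, 8 of 12 genes were negative and the median was -0.21. Its smallest p belonged to JAK2, a receptor-associated kinase (1.28, limma adjusted p = 0.0836), followed by SOCS3, a feedback inhibitor (-0.36, adjusted p = 0.160), and IRF1, a transcription factor (-0.79, adjusted p = 0.197). The type I response had 12 of 13 genes negative, a median of -0.91, and 1 call, STAT2, a transcription factor of interferon signalling, which fell by 0.80 (limma, adjusted p = 0.0159). The share called over all tested probe sets was 1.14%. Next came IRF9 (-1.25, limma adjusted p = 0.183) and IFIT1, the 1 positive gene (0.40, limma adjusted p = 0.192). Femur against humerus in affected cartilage, 8 of the 12 interferon gamma pathway genes were negative, and 3 were called lower and 1 higher. IRF8, a transcription factor of myeloid cells, fell by 1.82 (limma, adjusted p = 0.000834). The gene called higher was IFNG (0.38, limma adjusted p = 0.0288), and IFNGR1 fell by 0.61 (limma, adjusted p = 0.0393). In the same comparison 11 of the 13 type I response genes were negative and 7 were called, all lower. STAT2, IFI44L and USP18 had the smallest p-values. Of all tested probe sets 38.5% were called there. In non-affected cartilage, where 36.6% were called, 3 interferon gamma pathway genes were called higher and 3 lower. JAK2 fell by 1.67, IFNG rose by 0.52 and SOCS3 rose by 0.42 (limma, adjusted p = 0.00115, 0.00695 and 0.0143). No type I response gene was called there. IFNG itself averaged 5.97 ± 0.17 in femur affected and 5.89 ± 0.26 in femur non-affected samples (SD, n = 4 each), a little under the array medians (6.05 to 6.33).

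Markers of other cell types moved with these genes. The 10 measured macrophage and monocyte markers, averaged per sample, were at 4.96 to 6.20 in femur affected samples (median 5.47), against 6.17 to 7.52 in femur non-affected samples (median 7.02), and at 6.90 to 9.09 in humerus affected (median 8.07) and 5.74 to 8.56 in humerus non-affected samples (median 7.97). Of these 10 genes, 9 were lower in affected femur and none of the 10 passed the test. The smallest p-values belonged to CD86, the 1 gene that was higher there (0.62, limma adjusted p = 0.0881), and C1QC (-2.79, limma adjusted p = 0.0985). In affected cartilage, femur against humerus, 9 were called lower and CD86 higher, beside 38.5% of all tested probe sets called. Over deviations from group means in 21 samples the macrophage level correlated with SLA-DRA at r = 0.949 and with CD74 at r = 0.896. AIF1 and TYROBP, which mark myeloid cells, averaged 4.59 and 4.83 in femur affected samples, close to the floor.

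The level of 8 measured endothelial markers was 5.09 to 6.71 in femur affected samples, against 5.01 to 6.97 in femur non-affected samples, and 7.05 to 8.22 in humerus affected and 5.86 to 7.83 in humerus non-affected samples. It correlated with SLA-DRA at r = 0.894 over the same deviations. Femur against humerus in affected cartilage, 6 of the 7 tested endothelial genes were called lower and 1 higher. In non-affected cartilage 2 were called lower and ESAM higher (0.49, limma adjusted p = 0.00739). The shares called over all tested probe sets were 38.5% and 36.6%. The correlation of SLA-DRA was 0.654 with the 10 bone and osteoclast markers, 0.336 with the 4 dendritic cell markers, 0.101 with the T cell and NK cell markers and -0.365 with the chondrocyte markers. All 6 chondrocyte markers were higher in affected femur (median 0.49) and lower in affected humerus (median -0.17), and none was called. For B cells and plasma cells 2 genes of 11 listed were measured, and their mean correlated with SLA-DRA at 0.629. The lowest macrophage and endothelial levels among humeral samples both belonged to humerus non-affected 5, the sample with the lowest humeral SLA-DRA. What part these cells had in the levels of the antigen presentation genes was not tested. In such tissue pieces, fewer cells of a type and less RNA per cell cannot be told apart.

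**Figure D4:**
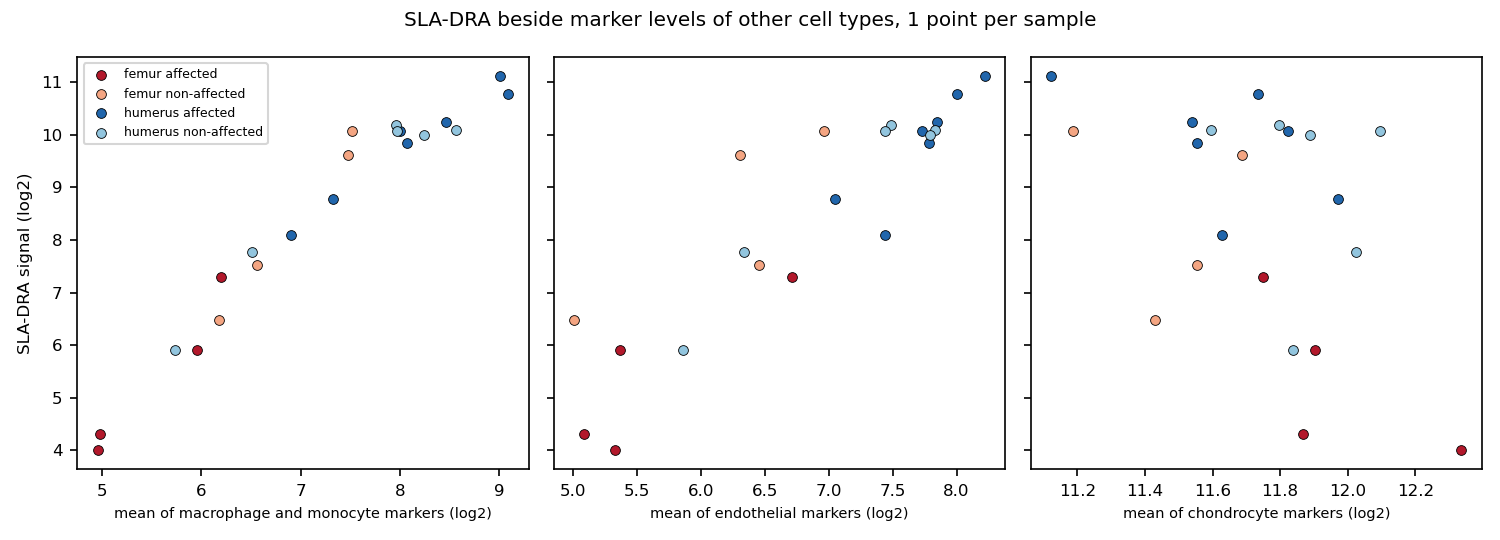
SLA-DRA signal (vertical axis, log2) against the mean log2 level of 10 macrophage and monocyte markers, 8 endothelial markers and 6 chondrocyte markers (horizontal axes), 1 point per sample coloured by group. SLA-DRA climbs with the macrophage level across all 4 groups, from femur affected 3, the lowest point, upwards, and less tightly with the endothelial level. With the chondrocyte level it runs loosely the other way (r = -0.457 over the values themselves).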

How the data were processed

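Total RNA of pig articular cartilage was extracted, labelled with biotin and hybridised to Affymetrix Porcine Genome Arrays, per the labels' protocols. The deposited table holds 1 log2 value per probe set and array for 23 arrays; GCOS 1.1.1 is named per the submitters' processing notes, and how arrays were normalized was not given in the sources used here. Values run from 4.0 to 17.6, with array medians of 6.05 to 6.33. Arrays have no read depth, and the number of arrays limits the precision.

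Humerus affected 5 and 6 (SD of their difference 0.108, under a bound of 0.25) and femur non-affected 1 and 2 (0.214) were averaged as 1 sample each. The next closest pair differed by 0.341. This left 21 samples. Of 24123 probe sets, 124 controls and 7200 with a mean under the 30th percentile (5.30) were left out, so 16799 were tested. Models were fitted with limma 3.58.1 (lmFit, eBayes) in R 4.3.3, with 1 fit of the 4 group means and 1 with site as a covariate. P-values were adjusted by Benjamini and Hochberg within a comparison, with 0.05 as the threshold for a call. The limma fits were tested on simulated data, except for the difference between the femoral and the humeral effect.

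Gene names come from the platform annotation (10099 probe sets with 1 symbol, 198 with several, 13826 unnamed here), and neighbouring genes from the RefSeq table of Sscrofa11.1. The members, the lists and the tests were chosen with earlier results of these data known. All member probe sets are described. The figures show further probe sets beside the brightest one of each gene, which was decided after the values were seen, as was grouping the 5 probe sets that moved together. Lists use the brightest probe set of each gene without the 4 members, and the genes named from them are the 3 with the smallest p per comparison; CIITA, AIF1, TYROBP and IFNG were named after their values were seen where they fall outside that rule. Likeness is the Pearson r of deviations from group means. Nothing in the labels ties samples to separate animals or to sibs, so p-values reflect the spread among these samples alone, which may be technical, and replicate numbers, given in accession order, pair nothing.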

Additional observations from a re-analysis of the deposited data

Results flagged for a closer look

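In 3 of the 56 combinations of a probe set and a group that were examined, 1 sample stood apart from the rest of its group by Dixon's criterion. Chance alone gives about 1 in 20 such groups. CD74 was at 4.0 in femur affected 3, where the next sample of the group had 4.66, and this reading is at the floor of the scale. B2M Ssc.12809.4.S1_a_at was at 6.08 in femur non-affected 1/2, where the next sample had 8.12. B2M Ssc.19916.2.S1_a_at was at 6.76 in humerus affected 1, where the next sample had 6.10.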

How the results depend on the processing

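The calls of the 14 probe sets were recomputed with all 23 arrays as separate samples, without a filter and with a stricter one, with quantile normalization or median centring, with a trended robust variance, with array weights, with only the groups compared, with 1 probe set per gene and without each sample in turn. No comparison of disease status gave a call among them under any of these. With 1 probe set per gene, which leaves 4 of the 14 probe sets in the fit, 3 were called between the sites in affected cartilage instead of 8. Without single samples that count was 6 to 8, and in non-affected cartilage it was 3 to 4. Of 84 values (14 probe sets in 6 comparisons), 24 had the other sign under at least 1 alternative, in 103 of 2420 recomputed values; none of the 24 passed, and the smallest limma adjusted p with the other sign was 0.544. Among them were TAP1 Ssc.23546.2.A1_at between the sites in affected cartilage (-0.037 to 0.21 without single samples) and SLA-DRA between the sites in non-affected cartilage (-1.20 to 0.065); the cause was not tested. Quantile normalization took away the calls of B2M Ssc.5896.1.S1_at between the sites (-0.14 in affected and -0.21 in non-affected cartilage, limma adjusted p = 0.183 and 0.0557). B2M Ssc.12809.5.A1_at lost its call with array weights, with only the groups compared and without any of 6 single samples. The femoral difference of SLA-DRA ran from -3.69 to -2.49 without single samples, with a smallest limma adjusted p of 0.0511 (without femur affected 4), and from -3.17 to -2.66 under the other alternatives. Over all probe sets the 192 femoral calls became 600 with all arrays separate, 59 with array weights, 4 with only the groups compared, 67 with 1 probe set per gene and 53 to 450 without single samples. The alternatives for the other class I and class II genes were chosen after seeing the data: between the sites in affected cartilage their 5 and 8 calls became 3 to 6 and 7 to 9 without single samples. No paired analysis was possible because the replicate numbers follow accession order and tie no samples together. Readings near the floor, as in CD74 and SLA-DRA of femur affected 3, are bounds.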
